A study of Mus musculus with 8 samples.

Results

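The 45 genes described here encode the Polycomb and Trithorax complexes of the mouse, chosen by name from the 24279 genes of the deposited tables: 11 of Polycomb repressive complex 2 (PRC2), 20 of PRC1, 3 of the deubiquitinase PR-DUB, 9 of the MLL complexes and 2 demethylases of lysine 27 of histone H3. Their RNA was measured in embryonic stem cells 6 days after withdrawal of LIF, leukemia inhibitory factor, which keeps such cells undifferentiated. NLS cells lack AGO1-4, the Argonaute proteins through which microRNAs act, and express only AGO2 with a nuclear localization signal (NLS-AGO2). DOX cells are AGO1-4-/- cells with AGO2 alone, induced by doxycycline, E14 cells are the wild-type line, and noDox cells are AGO1-4-/- with no Argonaute named. Each group has 2 libraries, 8 in all, of RNA from whole cells. The labels give the same cell description, a doxycycline-inducible HA-Flag-AGO2 line, and the same daily 2.5 µg/ml doxycycline at passages 8 to 15 for all 4 groups, noDox and E14 included. Whether a line is 1 clone is not given in the labels.

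Polycomb proteins keep developmental genes silent. PRC2 methylates lysine 27 of histone H3 through EZH1 or EZH2, and PRC1 ubiquitinates histone H2A through RING1 or RNF2, a mark that PR-DUB removes. The Trithorax side works the other way: MLL enzymes (KMT2A to KMT2D) methylate lysine 4 of histone H3 with the help of the WRAD core (WDR5, RBBP5, ASH2L, DPY30), and KDM6A and KDM6B remove methyl groups from lysine 27. In embryonic stem cells both systems meet at bivalent promoters of lineage genes, and most of the subunits come in paralogues that exclude each other from a complex.

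The values are RPKM (reads per kilobase of transcript, scaled to sequencing depth), 1 pooled value per group, with the statistic, p and q that Cuffdiff gave for each group against noDox. No spread between libraries can be given, and nothing says that the 2 libraries of a group came from separate cultures, so p-values measure only the spread between these libraries, which may be technical. Each error below is the standard error (SE) of a log2 fold that the deposited statistic implies, and rises and falls are those with q < 0.05 as deposited by the authors. The deposited tables for DOX and for E14 were identical in all 24279 lines, so that group is named DOX/E14 here and its directions rest on a name that is not settled. Ago1 was at 0.861 RPKM in NLS, 16.7 in DOX/E14 and 0.0159 in noDox, and the DOX/E14 value goes against the DOX label. Ago2 was at 35.7 RPKM in NLS, 32.6 in DOX/E14 and 26.1 in noDox, called in neither table. Ago3 was at 14.5 RPKM in NLS against 7.76 in noDox (rose), and at 3.001 RPKM in DOX/E14 against 7.56 in noDox (fell), the reverse order to Ago1 between the NLS and DOX/E14 groups. Each table was scaled on its own, and noDox came out 1.03 times higher in the table with NLS than in the other. Therefore each value is set beside the noDox value of its own table. Where a single noDox value is given beside both groups, it is that of the DOX/E14 table. The depth of the libraries is unknown. Pou5f1, the defining stem cell factor, was at 474 RPKM in NLS, 542 in DOX/E14 and 501 in noDox, called in neither table, while other stem cell factors fell in DOX/E14: Nanog was at 287 RPKM in NLS, 69.3 in DOX/E14 and 431 in noDox. In bulk RNA, fewer cells of a type and less RNA per cell cannot be told apart.

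Of the 45 genes, 44 were tested in both tables. In NLS against noDox 0 of the 44 were called by Cuffdiff, where 8.36% of all tested genes were. In DOX/E14 against noDox 12 rose and 17 fell, 65.9% of the 44, where 55.5% of all tested genes changed, 27.2% up and 28.3% down. Of the 44, 12 also reached an absolute log2 fold of 1 (27.3%), where 31.5% of all tested genes did. At q < 0.01 26 of the 44 passed, where 44.7% of all tested genes did. Size gives the same order: the median absolute log2 fold of the set was 0.23 in NLS and 0.72 in DOX/E14, beside 0.33 and 0.70 over all tested genes with a finite fold. The median log2 fold of the set was −0.002 in NLS and −0.04 in DOX/E14, so neither direction prevailed. By absolute fold the set was close to the whole of the tested genes in DOX/E14 and below it in NLS, as a description without a test. Over tested genes at 1 RPKM or more in both groups, the median absolute log2 fold was 0.29 in NLS and 0.61 in DOX/E14. Beside those genes the set was lower in NLS and higher in DOX/E14. Set against each other, the NLS and DOX/E14 folds differed for 8 members by a z test, 7 higher in NLS and 1 lower, where 13% of 11907 genes differed by the same test, 9.78% higher and 3.18% lower.

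**Figure D1:**
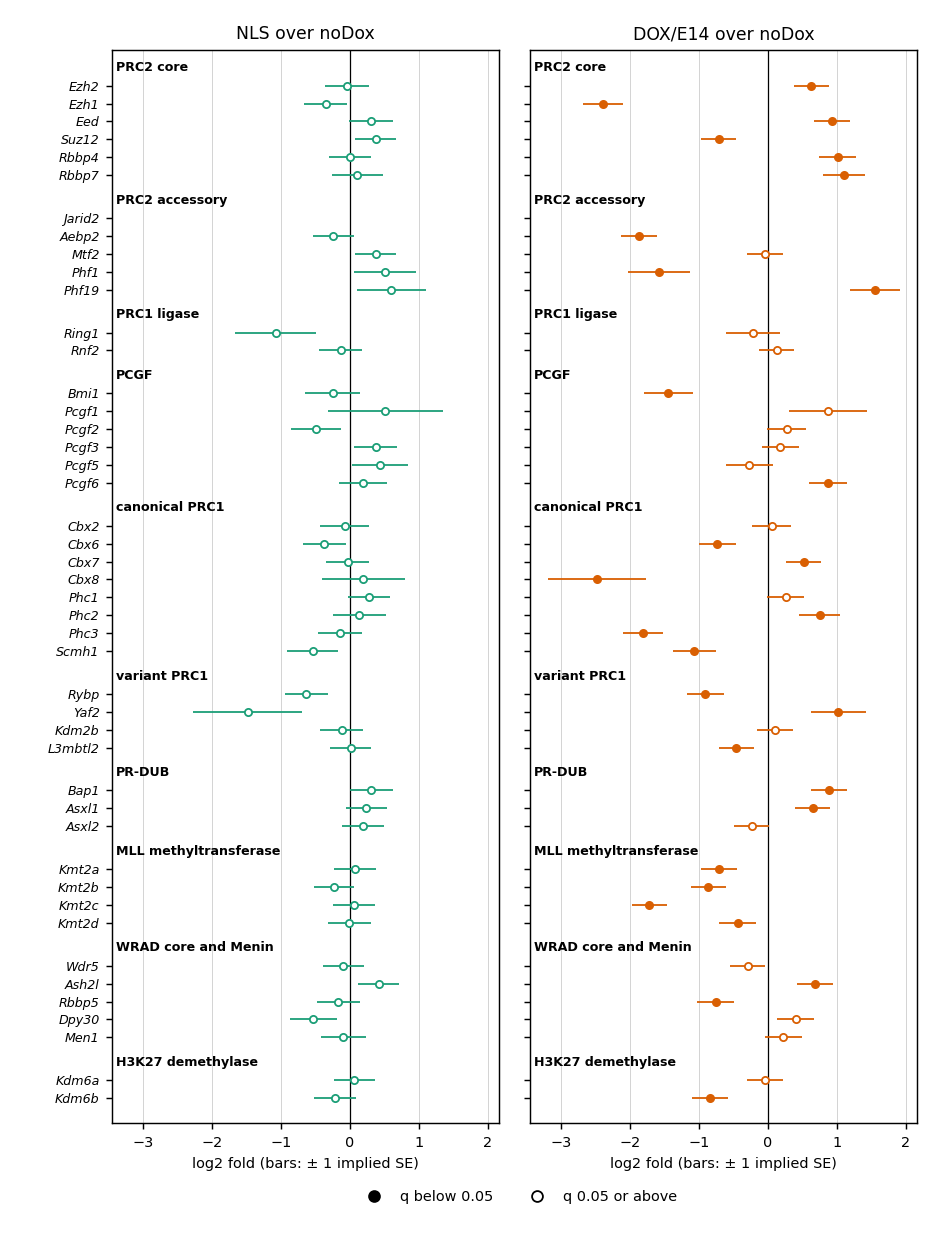
Log2 fold of each of the 44 tested genes against noDox, NLS in the left panel and DOX/E14 in the right, grouped by role, with bars of 1 implied SE. Filled points passed q < 0.05 in the authors' deposited table: 0 in NLS, and 12 above and 17 below the line of no change in DOX/E14.

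The count of 0 in NLS came beside 6 genes with an unadjusted p below 0.05, where 20.8% of all tested genes had one. A normal p computed from the deposited statistic also gave 0 calls, as did testing only genes of at least 1 RPKM. All 6 are named here as the ones below that p. Rybp, a subunit of variant PRC1, came closest to the threshold: it was at 19.4 RPKM in NLS against 30.1 in noDox (log2 fold −0.63, SE 0.31; authors' deposited q = 0.0501). Ring1, the minor H2A ligase, was at 2.23 RPKM in NLS against 4.71 in noDox. Yaf2, the paralogue of Rybp, was at 0.958 RPKM in NLS against 2.68 in noDox, the largest absolute fold of the set in that table (log2 fold −1.49, SE 0.79; authors' deposited q = 0.125). The other 3 were the MLL subunits Dpy30 (79.4 RPKM in NLS against 115 in noDox) and Ash2l (129 in NLS against 96.01 in noDox), and Scmh1 of canonical PRC1 (7.50 in NLS against 10.9 in noDox). Ash2l was the higher one in NLS, and the other 5 were lower. The SE of a member's fold in this table had a median of 0.31 and reached 0.83, and the 95% interval lay within a log2 change of 1 either way for 31 of the 44. For the other 13, a change of that size in NLS is within the error.

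The core of PRC2 split in DOX/E14, with 4 of its 6 genes higher and 2 lower, where 27.2% of all tested genes rose and 28.3% fell. Ezh1, the methyltransferase typical of resting and differentiated cells, was at 18.3 RPKM in NLS against 23.3 in noDox, and at 4.32 RPKM in DOX/E14 against 22.7 in noDox. NLS stood near noDox, while DOX/E14 was the low group. The fall in DOX/E14 was −2.39 on the log2 scale (SE 0.29; authors' deposited q = 0.00017), and the NLS fold exceeded the DOX/E14 fold by 2.04 (SE 0.43; adjusted p = 7.72e-05 in a z test of that difference on the authors' statistics). Ezh2, the enzyme of dividing cells, was at 30.9 RPKM in NLS against 31.9 in noDox, and rose to 48.2 RPKM in DOX/E14 against 31.1 in noDox. Its 2 folds did not differ past the threshold (adjusted p = 0.304 in that z test on the authors' statistics). On GRCm38 Ezh1 lies on the minus strand of chromosome 11 (101191115 to 101226463) and Ezh2 on the minus strand of chromosome 6 (47530139 to 47595341).

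Eed reads the methylated lysine 27. It was at 42.8 RPKM in NLS against 34.8 in noDox, and rose to 64.6 RPKM in DOX/E14 against 33.9 in noDox (log2 fold 0.93, SE 0.26; authors' deposited q = 0.00017). Suz12, the scaffold of the complex, went the other way in DOX/E14. It was at 82.2 RPKM in NLS against 63.3 in noDox, and fell to 37.7 RPKM in DOX/E14 against 61.7 in noDox. The difference between its folds was 1.09 (SE 0.39; adjusted p = 0.0445 by z from the authors' statistics), higher in NLS. The histone-binding proteins RBBP4 and RBBP7, which PRC2 shares with several other chromatin complexes, rose together. Rbbp4 was at 70.7 RPKM in NLS against 70.5 in noDox, and at 139 RPKM in DOX/E14 against 68.8 in noDox (log2 fold 1.01, SE 0.27; authors' deposited q = 0.00017). Rbbp7 was at 103 RPKM in NLS against 95.9 in noDox, and at 200.3 RPKM in DOX/E14 against 93.5 in noDox (log2 fold 1.099, SE 0.30; authors' deposited q = 0.00017). The deposited locus of Rbbp7 spans 945365 bases where the annotated gene spans 18691, so its reads may include those of neighbours. The locus of Rbbp4 is 1.69 times the length of its gene, and that of Cbx6 4.45 times. Some loci cover only part of the annotated gene, at 0.30 times its length for Cbx7, 0.53 for Cbx8, 0.68 for Pcgf5 and 0.73 for Rnf2.

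Accessory subunits direct PRC2 to its sites. Aebp2, a zinc finger subunit, was at 56.4 RPKM in NLS against 66.6 in noDox, and fell to 17.8 RPKM in DOX/E14 against 64.9 in noDox (log2 fold −1.87, SE 0.26; authors' deposited q = 0.00017). The 2 folds of Aebp2 differed by 1.63 (SE 0.40; adjusted p = 0.00111 by z from the authors' statistics). Among the 3 Polycomb-like proteins, which bind unmethylated CpG-rich DNA, Mtf2 was the main transcript in every group: 68.8 RPKM in NLS against 53.2 in noDox, and 50.3 RPKM in DOX/E14 against 51.8 in noDox, called in neither. Its minor paralogues moved in opposite directions in DOX/E14. Phf1 was at 6.72 RPKM in NLS against 4.72 in noDox, and fell to 1.53 RPKM in DOX/E14 against 4.60 in noDox (log2 fold −1.58, SE 0.45; authors' deposited q = 0.00017), and its folds differed by 2.09 (SE 0.64; adjusted p = 0.0127 by z from the authors' statistics). Phf19 was at 3.28 RPKM in NLS against 2.16 in noDox, and rose to 6.19 RPKM in DOX/E14 against 2.11 in noDox (log2 fold 1.56, SE 0.36; authors' deposited q = 0.00017). Jarid2, the substoichiometric subunit that recruits PRC2, could not be tested. It is listed at 169 RPKM in NLS, 109 in DOX/E14 and 0 in noDox, with a status saying that the gene had too many reads to be fitted there, so the 0 is a failed estimate and no fold is given.

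**Figure D2:**
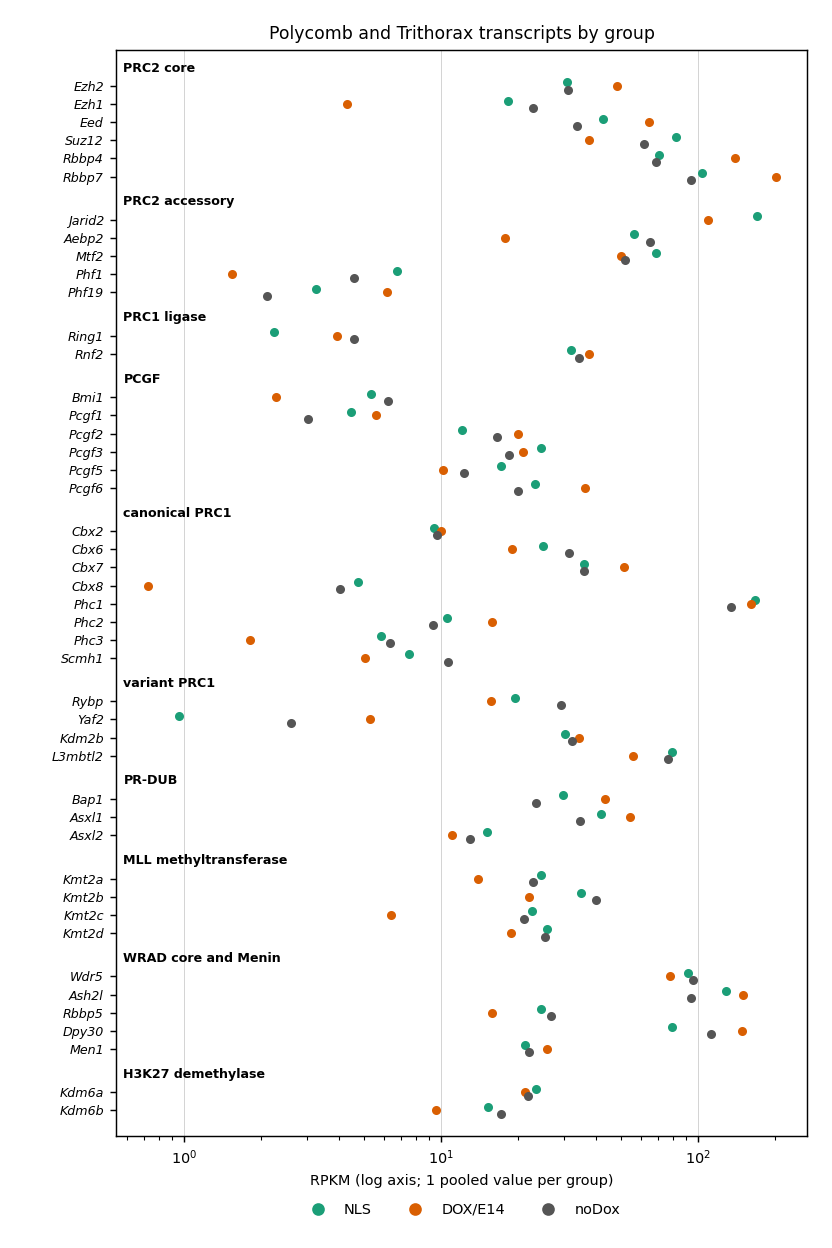
RPKM of each gene on a log axis in NLS, DOX/E14 and noDox, grouped by role, with the noDox values of the DOX/E14 table. NLS points lie near those of noDox for most genes, DOX/E14 stands furthest below noDox for Cbx8 (0.724 RPKM against 4.06) and Ezh1 (4.32 against 22.7), and Jarid2 in noDox is listed at 0 and not drawn.

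The ligases of PRC1 were called in neither table. Rnf2, which carries most of the H2A ubiquitination in stem cells, was at 32.1 RPKM in NLS against 35.3 in noDox, and at 37.5 RPKM in DOX/E14 against 34.4 in noDox. Ring1 was at 3.94 RPKM in DOX/E14 against 4.59 in noDox. The PCGF proteins decide which PRC1 variant a ligase joins, and 2 of these 6 genes changed in DOX/E14, where 55.5% of all tested genes did. Bmi1 (PCGF4) of canonical PRC1 was at 5.36 RPKM in NLS against 6.37 in noDox, and fell to 2.28 RPKM in DOX/E14 against 6.20 in noDox (log2 fold −1.45, SE 0.36; authors' deposited q = 0.00017). Its partner in that role, Pcgf2 (MEL18), was at 12.1 RPKM in NLS against 16.9 in noDox, and at 19.9 RPKM in DOX/E14 against 16.5 in noDox. Pcgf6, of the germline-gene complex PRC1.6, was at 23.3 RPKM in NLS against 20.4 in noDox, and rose to 36.4 RPKM in DOX/E14 against 19.9 in noDox. Pcgf1, Pcgf3 and Pcgf5 were called in neither table; they lay between 4.46 and 24.5 RPKM in NLS. Over all 15 members not called in DOX/E14 the log2 fold ran between −0.29 (Wdr5) and 0.88 (Pcgf1).

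Canonical PRC1 reads lysine 27 methylation through a CBX protein and clusters through a PHC protein. Of the 8 genes tested, 2 rose and 4 fell in DOX/E14, where 27.2% of all tested genes rose and 28.3% fell. Cbx7, the main CBX protein of undifferentiated stem cells, was the most abundant of the 4 CBX transcripts here: 36.1 RPKM in NLS against 37.0 in noDox, and a rise to 51.7 RPKM in DOX/E14 against 36.1 in noDox. Cbx6 was at 24.8 RPKM in NLS against 32.2 in noDox, and fell to 18.8 RPKM in DOX/E14 against 31.4 in noDox. Cbx8 was at 4.76 RPKM in NLS against 4.16 in noDox, and fell to 0.724 RPKM in DOX/E14 against 4.06 in noDox. The folds of Cbx8 differed by 2.68 (SE 0.93; adjusted p = 0.0352 by z from the authors' statistics), the largest such difference of the set and the one with the largest SE among those called. Cbx2 was at 9.40 RPKM in NLS against 9.92 in noDox, and at 10.03 RPKM in DOX/E14 against 9.67 in noDox, and passed in neither. In all groups Phc1 exceeded the other Polyhomeotic genes by far, at 166 RPKM in NLS against 137 in noDox and 161 RPKM in DOX/E14 against 134 in noDox, with no call. Phc2 was at 10.5 RPKM in NLS against 9.58 in noDox, and rose to 15.8 RPKM in DOX/E14 against 9.34 in noDox. Phc3 was at 5.85 RPKM in NLS against 6.48 in noDox, and fell to 1.80 RPKM in DOX/E14 against 6.31 in noDox (log2 fold −1.81, SE 0.29; authors' deposited q = 0.00017). Its folds differed by 1.66 (SE 0.43; adjusted p = 0.00238 by z from the authors' statistics). Scmh1, a SAM-domain partner of the PHC proteins, fell to 5.06 RPKM in DOX/E14 against 10.6 in noDox (log2 fold −1.07, SE 0.31; authors' deposited q = 0.00017).

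Variant PRC1 carries RYBP or YAF2 in place of a CBX protein. This pair gave the one difference in which NLS was the lower group. Yaf2 rose to 5.31 RPKM in DOX/E14 against 2.61 in noDox (log2 fold 1.02, SE 0.40; authors' deposited q = 0.00202), beside 0.958 RPKM in NLS against 2.68 in noDox. The difference between its folds was −2.51 (SE 0.89; adjusted p = 0.0409 by z from the authors' statistics). Rybp fell to 15.6 RPKM in DOX/E14 against 29.3 in noDox (NLS values above). L3mbtl2, a methyl-lysine reader of PRC1.6, was at 78.9 RPKM in NLS against 78.2 in noDox, and fell to 55.6 RPKM in DOX/E14 against 76.3 in noDox. Kdm2b, which brings PRC1.1 to CpG islands, was called in neither table, at 30.4 RPKM in NLS and 34.6 in DOX/E14.

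PR-DUB consists of the deubiquitinase BAP1 with an ASXL cofactor. Bap1 was at 29.8 RPKM in NLS against 24.05 in noDox, and rose to 43.3 RPKM in DOX/E14 against 23.5 in noDox. Asxl1 was at 42.0 RPKM in NLS against 35.6 in noDox, and rose to 54.4 RPKM in DOX/E14 against 34.7 in noDox. Asxl2 did not follow: 15.1 RPKM in NLS against 13.3 in noDox, and 11.0 RPKM in DOX/E14 against 13.0 in noDox, with no call.

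All 4 MLL methyltransferase genes fell in DOX/E14, where 28.3% of all tested genes fell, and none was called in NLS. Kmt2c (MLL3), an enhancer enzyme, was at 22.5 RPKM in NLS against 21.6 in noDox, and fell to 6.39 RPKM in DOX/E14 against 21.1 in noDox (log2 fold −1.72, SE 0.26; authors' deposited q = 0.00017). Its folds differed by 1.78 (SE 0.40; adjusted p = 0.000254 by z from the authors' statistics). The remaining 3 fell by less. Kmt2d (MLL4), the partner of Kmt2c at enhancers, was at 25.9 RPKM in NLS against 26.0 in noDox, and at 18.7 RPKM in DOX/E14 against 25.4 in noDox. Kmt2a (MLL1), known for holding Hox genes active, was at 24.5 RPKM in NLS against 23.4 in noDox, and at 13.95 RPKM in DOX/E14 against 22.7 in noDox. Kmt2b (MLL2), which marks bivalent promoters, was at 34.9 RPKM in NLS against 40.9 in noDox, and at 21.9 RPKM in DOX/E14 against 39.9 in noDox. Summed over the 4 enzymes, the level was 108 RPKM in NLS against 112 in noDox, and 60.9 RPKM in DOX/E14 against 109 in noDox.

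The shared subunits were mixed in DOX/E14, with 1 rise and 1 fall among 5 genes, where 27.2% of all tested genes rose and 28.3% fell. Ash2l was at 150.0 RPKM in DOX/E14 against 93.6 in noDox and rose, and Rbbp5 fell to 15.8 RPKM in DOX/E14 against 26.8 in noDox, beside 24.4 RPKM in NLS against 27.5 in noDox. Wdr5, Dpy30 and Men1 (Menin, the adaptor of KMT2A and KMT2B) were not called in either table. For Wdr5 the level was 91.5 RPKM in NLS and 77.8 in DOX/E14. Dpy30 was at 148 RPKM in DOX/E14 against 112 in noDox, close to the threshold (authors' deposited q = 0.0521). Together the WRAD genes and Men1 gave 345 RPKM in NLS against 359 in noDox, and 417 RPKM in DOX/E14 against 350 in noDox. Of the lysine 27 demethylases, Kdm6b was at 15.2 RPKM in NLS against 17.6 in noDox, and fell to 9.58 RPKM in DOX/E14 against 17.1 in noDox. Kdm6a, on the X chromosome, was at 23.4 RPKM in NLS against 22.3 in noDox, and at 21.2 RPKM in DOX/E14 against 21.8 in noDox.

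Within paralogue families the makeup of the transcript pool was compared as shares of the family's summed RPKM, a per-length scale. Ezh1 made up 37.1% of the EZH transcripts in NLS against 42.2% in noDox, and 8.23% in DOX/E14 against 42.2% in noDox. Yaf2 made up 4.71% of the RYBP/YAF2 pool in NLS against 8.18% in noDox, and 25.3% in DOX/E14 against 8.18% in noDox. Kmt2c made up 46.5% of the MLL3/4 pool in NLS against 45.4% in noDox, and 25.5% in DOX/E14 against 45.4% in noDox. In these families, picked for their shift, the share in NLS lay nearer to noDox than the share in DOX/E14 did. The reverse held, among others, for Ring1 in its pool with Rnf2 (6.498% in NLS, 9.51% in DOX/E14 and 11.8% in noDox). It also held for Kmt2a in its pool with Kmt2b (41.3% in NLS, 38.9% in DOX/E14 and 36.3% in noDox). For Phc1 among the PHC genes the shift was small (91.0% in NLS, 90.1% in DOX/E14 and 89.5% in noDox), again with DOX/E14 nearer to noDox. Bmi1 made up 30.8% of its pool with Pcgf2 in NLS against 27.4% in noDox, and 10.3% in DOX/E14 against 27.4% in noDox. Cbx7 made up 48.1% of the 4 CBX transcripts in NLS against 44.5% in noDox, and 63.6% in DOX/E14 against 44.4% in noDox. By contrast Rbbp7 kept 59.4% of its pool with Rbbp4 in NLS and 59.0% in DOX/E14, beside 57.6% in noDox.

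Differences between the folds of 2 paralogues in the same table, with both SEs combined as if independent, give the error of these shifts. In DOX/E14 the fold of Ezh2 exceeded that of Ezh1 by 3.03 on the log2 scale (95% interval 2.26 to 3.79), where in NLS the difference was 0.31 (−0.57 to 1.18). Phf19 exceeded Phf1 by 3.14 (SE 0.57) and Phc2 exceeded Phc3 by 2.57 (SE 0.42) in DOX/E14. Yaf2 exceeded Rybp there by 1.93 (SE 0.48), Pcgf2 exceeded Bmi1 by 1.72 (SE 0.46) and Kmt2d exceeded Kmt2c by 1.28 (SE 0.37). Cbx7 exceeded Cbx8 by 3.004 (SE 0.75) and Cbx6 by 1.26 (SE 0.37), Phf19 exceeded Mtf2 by 1.598 (SE 0.44), Asxl1 exceeded Asxl2 by 0.88 (SE 0.36) and Kdm6a exceeded Kdm6b by 0.80 (SE 0.37). These are the 11 of 14 pairs whose 95% interval excluded 0 in DOX/E14. The 14 pairs were picked by hand with earlier results known, and the gene with the higher DOX/E14 fold stands first in each. Not every pair of a family was taken, and no share over other gene pairs was computed. Of all tested genes, 55.5% changed in DOX/E14, so the count of 11 is a description only. The pairs Rbbp7 and Rbbp4 (0.09, SE 0.41), Kmt2a and Kmt2b (0.16, SE 0.36), and Rnf2 and Ring1 (0.35, SE 0.47), did not part beyond their error in DOX/E14. In NLS every interval of the 14 pairs compared included 0.

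**Figure D3:**
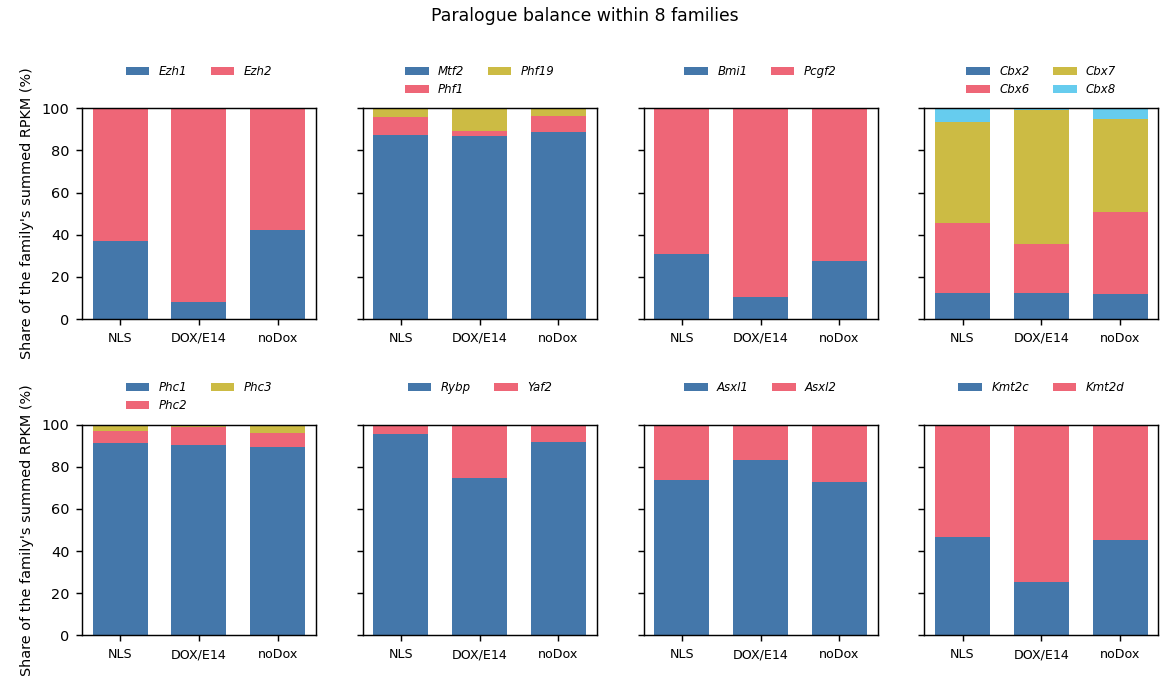
Share of the summed RPKM taken by each member of 8 paralogue families, as stacked bars for NLS, DOX/E14 and noDox (the noDox of the DOX/E14 table). The families were selected: the pools of Ring1 and Rnf2, Kmt2a and Kmt2b, Rbbp4 and Rbbp7, and Kdm6a and Kdm6b are not drawn. The Ezh1 bar is 37.1% in NLS, 8.23% in DOX/E14 and 42.2% in noDox. The Phc1 bar is 91.0% in NLS, 90.1% in DOX/E14 and 89.5% in noDox.

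Argonaute loaded with a microRNA recognises a transcript mainly through bases 2 to 8 of the microRNA, the seed. The microRNA families most typical of mouse embryonic stem cells are the miR-302 family (miR-290 cluster and miR-302) and the miR-17 family (miR-17, miR-20, miR-93, miR-106), whose seeds are shifted by 1 base against each other. Their mature sequences, from RefSeq on GRCm38.p6, are shown with the seed in capitals because the 3′ UTRs of the 44 tested genes were searched for matches to them. The first pair shares 1 seed and the second pair shares the other.
mmu-miR-294-3p (chr7:3220691-3220712, plus strand): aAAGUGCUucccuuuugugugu
mmu-miR-302b-3p (chr3:127545275-127545297, plus strand): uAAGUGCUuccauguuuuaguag
mmu-miR-17-5p (chr14:115043684-115043706, plus strand): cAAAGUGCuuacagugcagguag
mmu-miR-20a-5p (chr14:115044183-115044205, plus strand): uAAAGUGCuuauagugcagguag

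A match was AGCACTT or GCACTTA for the miR-302 family and GCACTTT or CACTTTA for the miR-17 family, on the transcript strand of the longest annotated 3′ UTR (GENCODE M21, GRCm38). These letters overlap, so a stretch can match both families, and a match is not a shown site of binding. The families and the search were chosen after the values were seen. In all 8 families were searched. Windows of genes that fell in DOX/E14 are shown 5′ to 3′ on the transcript strand, with the matching letters in capitals. For Ezh1 there is 1 match to the miR-302 family and there are 3 to the miR-17 family, of which 1 overlaps the first.
Ezh1, miR-302 family (chr11:101192008-101192034, minus strand): ggattcatagagaacaaAGCACTTtaa
Ezh1, miR-17 family (chr11:101191160-101191186, minus strand): tgccagtaaatttcttGCACTTTAaag
Phc3, miR-302 family (chr3:30904826-30904852, minus strand): tcctttcttattactaAGCACTTAaga
Aebp2, miR-302 family (chr6:140652583-140652609, plus strand): gtttttccttttgcttaAGCACTTcat
Bmi1, miR-302 family (chr2:18686454-18686480, plus strand): ctgagagtgcgtttgagGCACTTAtgg
Kmt2a, miR-302 family (chr9:44806509-44806535, minus strand): gcacttcatagggagaAGCACTTAtga

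At least 1 match to either family was present in 11 of the 17 genes that fell in DOX/E14 (64.7%), 5 of the 12 that rose (41.7%) and 7 of the 15 not called (46.7%). Over all tested genes with an annotated 3′ UTR the shares were 40.1% of those that fell, 26.3% of those that rose and 30.3% of those not called. The genes of the set have longer 3′ UTRs than the rest: a median of 1933 bases for those that fell and 1168.5 for those that rose, beside 1373 and 1050.5 over all tested genes. Per kilobase of 3′ UTR the matches numbered 0.570 in members that fell, 0.361 in those that rose and 0.537 in those not called, beside 0.395, 0.264 and 0.338 in all tested genes of the same calls. Among single genes, Phc3 holds 6 matches to the miR-302 family in 7965 bases and fell in DOX/E14, while Asxl2 holds 4 and was not called. The annotated 3′ UTR can run past the locus of the deposited tables, whose end differs: all matches of Pcgf5 and Pcgf3 and the match of Cbx8 lie outside it. With those left out, 10 of the 17 genes that fell (58.8%), 5 of the 12 that rose (41.7%) and 5 of the 15 not called (33.3%) hold a match. Kmt2c fell with no match to either family, in an annotated 3′ UTR of 57 bases. Among members the other 6 families gave no common order. Over all tested genes a match to each of these 6 was present in a larger share of genes that fell, whose 3′ UTRs are longer, than of genes that rose. Per kilobase of 3′ UTR this order held for miR-101, miR-125, miR-181 and miR-30. It did not hold for let-7 (0.117 in genes that fell, 0.142 in genes that rose) or miR-26 (0.175 and 0.177). Matches to miR-125 were present in 29.4% of the members that fell and 58.3% of those that rose, beside 27.2% and 20.1% of all tested genes. For miR-26 the shares were 17.6% of members that fell and 33.3% of those that rose, beside 24.5% and 20.4% of all tested genes. For miR-30 they were 29.4% and 41.7%, beside 24.5% and 19.9%. Matches to let-7 were present in 11.8% of members that fell and 8.33% of those that rose, beside 17.9% and 16.9% of all tested genes. For miR-101 the shares were 35.3% and 33.3%, beside 22.7% and 19.1%. For miR-181 they were 23.5% and 33.3%, beside 26.9% and 21.1%.

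**Figure D4:**
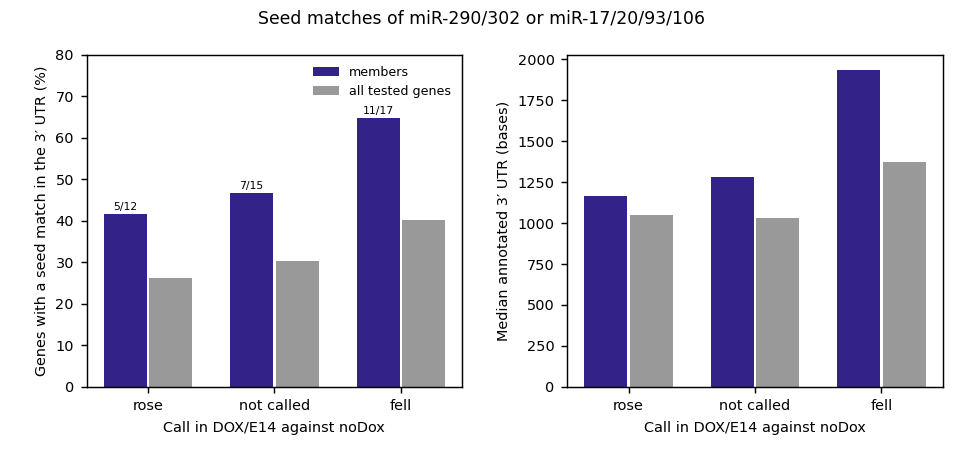
Percentage of genes with at least 1 seed match in the 3′ UTR, for genes that fell, rose or were not called in DOX/E14, members beside all tested genes, with the number of genes on the member bars, and the median length of the 3′ UTR in bases beside it. Matches to either family are most frequent in genes that fell, at 64.7% of 17 members and 40.1% of all tested genes.

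A further 57 genes of these complexes, from a list of subunits and cofactors outside the 45, were present in the tables. In NLS 0 of 51 tested rose and 2 fell, 3.92% in all, where 8.36% of all tested genes were called. Auts2, a PRC1.3/1.5 subunit, fell to 3.09 RPKM in NLS against 7.72 in noDox. Ncoa6, of the MLL3/4 complexes, fell to 11.8 RPKM in NLS against 19.1 in noDox. In DOX/E14 15 of 52 tested rose and 23 fell, 73.1% in all, where 27.2% of all tested genes rose and 28.3% fell. The median log2 fold of the list was −0.12 in NLS and −0.18 in DOX/E14, beside −0.01 and 0.01 over all tested genes. Lcor, whose locus encodes the PRC2 subunit PALI1, was at 13.95 RPKM in NLS against 13.7 in noDox, and fell to 2.06 RPKM in DOX/E14 against 13.3 in noDox. Ash1l, a methyltransferase of the Trithorax group, was at 17.5 RPKM in NLS against 18.5 in noDox, and fell to 5.43 RPKM in DOX/E14 against 18.0 in noDox. The log2 fold in DOX/E14 was −2.70 for Lcor and −1.73 for Ash1l. Rises included Tasp1, the protease that cleaves KMT2A and KMT2B, at 4.02 RPKM in NLS against 4.63 in noDox and 16.4 RPKM in DOX/E14 against 4.50 in noDox. Sfmbt2, an imprinted MBT-domain gene, was at 10.6 RPKM in NLS against 6.29 in noDox, and rose to 46.8 RPKM in DOX/E14 against 6.14 in noDox. The demethylases of lysine 4 included 2 falls in 4 tested genes and no rise in DOX/E14: Kdm5b was at 178 RPKM in NLS against 206 in noDox, and at 74.8 RPKM in DOX/E14 against 200.9 in noDox, and Kdm5a was at 30.7 RPKM in NLS against 29.6 in noDox, and at 13.5 RPKM in DOX/E14 against 28.9 in noDox. Uty, the Y-linked paralogue of Kdm6a, was at 0.168 RPKM in NLS and 7.66 in DOX/E14, and is listed at 0 in noDox. Kdm5d, the Y-linked paralogue of the lysine 4 demethylases, is listed at 0 in all groups. Uty RNA thus differs between groups beside the Argonaute genotype, and its part in these results was not tested.

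Of 30 classic Polycomb target genes of stem cells, 15 were under 1 RPKM in every group. In NLS 1 of 11 tested rose and 0 fell (9.09% called), where 8.36% of all tested genes were called. In DOX/E14 4 of 13 rose and 4 fell (61.5% called), where 27.2% of all tested genes rose and 28.3% fell. Cdkn2a, a cell cycle inhibitor gene, was at 24.9 RPKM in NLS against 21.7 in noDox, and fell to 8.63 RPKM in DOX/E14 against 21.2 in noDox. Its neighbour Cdkn2b was at 9.03 RPKM in NLS against 8.55 in noDox, and fell to 2.78 RPKM in DOX/E14 against 8.33 in noDox. Markers of cell state moved in DOX/E14 as well, in both directions. Of 8 stem cell markers 4 fell there: Nanog, Esrrb (178 RPKM in NLS, 33.7 in DOX/E14 and 189 in noDox), Sox2 (154 in NLS, 53.2 in DOX/E14 and 184 in noDox) and Zfp42 (255 in NLS, 107 in DOX/E14 and 254 in noDox). Utf1 (119.9 in NLS, 207 in DOX/E14 and 116 in noDox) and Sall4 rose there. None of the 7 tested in NLS was called, and Nanog was not tested there because its fit failed. The summed RPKM of the 8 was 1707 in NLS, 1271 in DOX/E14 and 1869 in noDox. For 5 fibroblast markers the sum was 3.40 in NLS, 11.6 in DOX/E14 and 1.27 in noDox. In DOX/E14 Col1a1 (7.79, not called) and Col1a2 (2.46, rose) made up most of that sum. Thy1 (1.04 in DOX/E14 against 0.565 in noDox), Dcn (0.183 against 0.137) and Pdgfra (0.162 against 0.515) were not tested there. For 3 neural markers the sum was 46.5 in NLS, 38.7 in DOX/E14 and 29.7 in noDox, of which Tubb3 made up nearly all and was called in neither table. The neural factors Sox1 (0.572 in NLS, 5.05 in DOX/E14 and 0.351 in noDox) and Pax6 (0.335 in NLS, 2.85 in DOX/E14 and 0.438 in noDox) rose in DOX/E14. The sums of 4 extraembryonic endoderm markers (1.93 in NLS, 2.34 in DOX/E14 and 1.90 in noDox) and of 2 trophoblast markers (0.710 in NLS, 1.82 in DOX/E14 and 0.858 in noDox) were low. Col1a2 of the fibroblast list and Sox7 of the endoderm list are at 0 in noDox. The part of such shifts in the changes of the Polycomb and Trithorax genes was not tested.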

How the data were processed

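RNA-seq libraries of 4 groups, 2 each, were processed with bcl2fastq 2.17.1, TopHat and Cuffdiff on mouse build mm10 (GRCm38), per the submitters' processing notes. The annotation and the use of strand are not given in the sources used here, so overlapping and antisense genes are uncertain. The deposited tables give RPKM values per group, and a test statistic (a signed score), p-value and q-value per gene, which come from the authors' Cuffdiff run (deposited, per the file headers). No table holds values per library.

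Log2 folds were computed from RPKM with no pseudocount (Python 3.11.15, pandas 2.3.3, scipy 1.17.1). The SE is the absolute log2 fold over the absolute statistic. The p-values imply a z of 1.42 times the statistic in the NLS table and 1.41 times in the DOX/E14 table (medians), so the SE given here exceeds that behind p. The lowest p is 5e-05, and the lowest q is 0.00191 for NLS and 0.00017 for DOX/E14. NLS and DOX/E14 folds were compared by a z whose variance sums both squared SEs, which counts the shared noDox variance although it cancels, with normal p (two-sided), adjusted over 11907 genes by Benjamini-Hochberg. This script was tested on simulated data.

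Members are named by role, with values for every called member and fold, SE and q for the 12 largest absolute folds among members of at least 1 RPKM in both groups. In addition, members with an unadjusted p below 0.05 in NLS are named, chosen after their values were seen. Of the other lists at most 4 called genes each are named, and Cdkn2a and Cdkn2b were chosen after their values were seen. The members and lists were chosen with earlier results of these data known. 3′ UTRs were derived from the coding ends of GENCODE M21 transcripts, the longest per gene. Gene coordinates are from GENCODE M21. Alternatives were another q threshold, p from the statistic, a minimum fold, a minimum of 1 RPKM, pseudocounts of 0.1 and 1, centring, scaling on noDox and SE from p. A withheld item is not reported here.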

Additional observations from a re-analysis of the deposited data

Results flagged for a closer look

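For 8 genes the log2 fold against noDox differed between NLS and DOX/E14 by the z test of the difference. In 7 of them the NLS fold was the higher: by 2.04 for Ezh1, 1.09 for Suz12, 1.63 for Aebp2, 2.09 for Phf1, 2.68 for Cbx8, 1.66 for Phc3 and 1.78 for Kmt2c. For Yaf2 the difference was −2.51, lower in NLS. No group has 4 samples with values of their own, so no test for a single outlying sample could be made.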

How the results depend on the processing

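The counts of changed members kept their size under most alternatives. In DOX/E14, 26 members were called at q < 0.01, where 44.7% of all tested genes were. With a normal p from the statistic 26 were called, where 43.3% of all tested genes were. Both settings left out Cbx7, L3mbtl2 and Kmt2d. Requiring an absolute log2 fold of at least 1 left 12, where 31.5% of all tested genes remained. In NLS 0 were called under every alternative tried, where 4.10% to 8.20% of all tested genes were. The 8 differences between NLS and DOX/E14 became 4 at an adjusted p below 0.01 (Ezh1, Aebp2, Phc3 and Kmt2c), where 7.45% of all compared genes differed. With the SE taken from p they became 12, which added Rbbp4, Bmi1, Kmt2a and Dpy30, where 23.9% of all compared genes differed. They became 6 where every group had to reach 1 RPKM, since Cbx8 and Yaf2 were then untested. In that setting 11.1% of all compared genes differed. Adding a pseudocount of 1 RPKM moved the DOX/E14 folds of Cbx8 and Phc3 by more than their SE without changing their sign. No result reversed. No paired analysis was possible because the files give 1 pooled value per group, and for the same reason leaving out single libraries could not be run. Depth is unknown, so what it limits cannot be stated beyond the SEs.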
